A study of Homo sapiens with 18 samples.

Results

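The 10 genes described here encode the core proteins that copy and transcribe human mitochondrial DNA (mtDNA). They are TFAM, TFB1M, TFB2M, POLRMT and TEFM on the transcription side, and POLG, POLG2, TWNK, SSBP1 and MGME1 on the replication side. They were chosen by name, as the rows of the gene count table whose symbol equals a name on this list. All 10 names were found once each among 58870 listed genes, and all 10 were among the 17962 genes with enough counts to be tested. The measurements were RNA-Seq read counts from 18 bulk libraries of the HEK293 Flp-In line, derived from human embryonic kidney and fitted with a genomic landing site for transgenes. Cells received a single siRNA against NRF1 (siNRF1) or a control siRNA (siNT), in lines with an inducible NRF1 transgene or without one. The transgene was NRF1-ΔE7, the isoform that lacks exon 7, or NRF1-FL, the full-length protein, so that the 2 isoforms could be compared in cells depleted of their own NRF1.

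The 6 conditions, with 3 libraries each, were siNRF1 with NRF1-ΔE7, siNT with NRF1-ΔE7, siNRF1 with NRF1-FL, siNT with NRF1-FL, siNRF1 without a transgene and siNT without a transgene. Every library is labelled as treated with both siRNA and doxycycline, which switches on the FLAG-tagged, siRNA-resistant transgenes. The labels place the doxycycline 24 h after transfection, whereas the methods of the study give a shorter delay. The transgenes sit in separately selected stable lines, so that a transgene and its line cannot be told apart here. For the samples with no transgene, the labels do not state whether these were parental cells or carried a control insert. No source says that the 3 libraries of a condition came from separate cultures, and p-values therefore measure the spread between these libraries, which may be technical.

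Mitochondria carry a small circular genome that is transcribed as long polycistronic RNAs by a single-subunit RNA polymerase, POLRMT, which resembles the polymerases of certain phages. TFAM bends and packages mtDNA and recruits POLRMT to promoters, TFB2M melts the promoter, and TEFM keeps the polymerase elongating. TFB1M, a relative of TFB2M, methylates the small ribosomal RNA of mitochondria. Replication uses the polymerase POLG with its accessory subunit POLG2, the helicase Twinkle (TWNK) and the single-strand binding protein SSBP1, while the exonuclease MGME1 trims single-stranded flaps and ends. NRF1, nuclear respiratory factor 1, is a nuclear transcription factor that binds GC-rich palindromes and is known for activating genes of the respiratory chain and of mtDNA maintenance. The promoters of TFAM, TFB1M and TFB2M are textbook examples of its targets.

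Each library held between 31.2 and 44.8 M estimated counts (M for mega), and the median library held 38.3 M. Levels are given as CPM, counts scaled to a common library size, with TMM factors. "Passed" means an adjusted p under 0.05 over all tested genes in edgeR's quasi-likelihood test, and a gene is called lower or higher only where it passed. As a check of the label, CPM was summed over 6 genes that HEK293 cells are known to express. The sum lay between 328 and 442 in every library. Without a transgene it was 377 to 391 CPM under siNRF1, against 423 to 441 CPM under siNT. It was 398 to 409 against 422 to 442 CPM with NRF1-FL, and 328 to 347 against 378 to 394 CPM with NRF1-ΔE7. After siNRF1, 3 of the 6 genes were lower and 2 higher without a transgene, 2 and 2 with NRF1-FL, and 4 and 2 with NRF1-ΔE7. Sums over 6 blood markers (1 of them at 0 in every library) and over 3 endothelial markers stayed below 1 CPM. Sums over 6 fibroblast or smooth muscle markers were 72 to 85.8 CPM in the siNRF1 libraries, against 28.4 to 33 CPM in the siNT libraries. Of the 4 fibroblast or smooth muscle genes that could be tested, 3 were higher after siNRF1 in each background. Another 1 was lower without a transgene and in the NRF1-FL line, and 1 did not pass in the NRF1-ΔE7 line. Of all tested genes, 32.1%, 32.2% and 34.5% were higher without a transgene, with NRF1-FL and with NRF1-ΔE7, and 32.4%, 31.3% and 33.6% lower. In cells without a transgene, sums over 7 keratinocyte markers ran from 2.9 to 23.6 CPM under siNRF1, against 6.59 to 7.15 CPM under siNT. Both transgenic lines had smaller sums under siNRF1 than under siNT. With NRF1-FL these were 2.16 to 3.47 CPM, against 4.94 to 4.96 CPM. With NRF1-ΔE7 they were 2.03 to 4.44 CPM, against 4.96 to 6.54 CPM. Of the 5 keratinocyte genes that could be tested, 2 were lower and 3 higher after siNRF1 alone. Each transgenic line had 2 lower and 0 higher. In such bulk samples fewer cells of a type and less RNA per cell cannot be told apart, and the part of these markers in the results that follow was not tested.

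NRF1 itself, the target of the siRNA, was measured first. NRF1 (ENSG00000106459.15) had 7.19, 9.25 and 7.70 CPM in siNRF1 libraries without a transgene, against 31.1, 29.9 and 29.3 CPM in siNT libraries without a transgene. This is a log2 fold-change of -1.92 (SE 0.0605, adjusted p = 5.85e-18). In the transgenic lines reads from the transgene count toward NRF1, and its RNA averaged 38.3 ± 1.35 CPM under siNRF1 with NRF1-ΔE7 and 49.6 ± 0.715 CPM under siNRF1 with NRF1-FL, both above the 30.1 ± 0.929 CPM of siNT cells without a transgene (SD, n = 3 each). Under siNRF1, total NRF1 RNA with NRF1-ΔE7 was below that with NRF1-FL, by a log2 fold-change of -0.37 (adjusted p = 9.03e-07). The 2 isoforms were therefore compared at unequal NRF1 RNA levels.

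The promoter sequences are shown here because NRF1 is the factor that was depleted. RefSeq (GRCh38.p14) windows from 250 bases before to 50 bases after the start were available for 9 of the 10 genes, all but TWNK. The NRF1 palindrome, GCGCA followed directly by its reverse complement TGCGC, was found exactly in 2 of these 9 genes, TFB1M and POLRMT, against 1.24% of 35116 promoter windows of the same length. With at most 1 mismatch it was found in 5 of the 9, against 7.35% of windows. These are stretches around the match, 5′ to 3′ on the strand of the gene, with the matched bases in capitals.
TFAM, chr10:58385322-58385381, plus strand: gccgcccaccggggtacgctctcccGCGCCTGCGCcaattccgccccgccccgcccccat
TFB1M, chr6:155314582-155314641, minus strand: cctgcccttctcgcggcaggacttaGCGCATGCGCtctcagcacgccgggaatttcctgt
TFB2M, chr1:246566262-246566303, minus strand: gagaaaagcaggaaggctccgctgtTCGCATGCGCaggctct
POLRMT, chr19:633538-633586, minus strand: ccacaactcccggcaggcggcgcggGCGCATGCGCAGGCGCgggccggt
POLG2, chr17:64497055-64497093, minus strand: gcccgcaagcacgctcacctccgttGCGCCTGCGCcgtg
The match began 63 bases before the start of TFAM, 132 before that of TFB1M, 17 before that of TFB2M, 24 before that of POLRMT and 14 before that of POLG2. These starts are those of the RefSeq windows. In GENCODE v44 the TFAM gene begins at base 58385345, before this match, and its canonical transcript at base 58385410. In POLRMT a second match with 1 mismatch overlaps the exact one and is included in the capitals. TEFM, POLG, SSBP1 and MGME1 had no match within 1 mismatch in these windows.

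Other elements were searched on both strands of the same windows. The shorter element TGCGCA, which overlaps the palindrome, was present in TFB2M and POLRMT (8.24% of all windows). The ETS core CCGGAAG, which GABP recognizes, was present in 5 of the 9 genes (TFB1M, POLRMT, TEFM, POLG2 and SSBP1), against 10.3% of windows. The SP1 GC box GGGCGG was present in 7 of the 9, against 45% of windows. The YY1 core AAGATGG was found in SSBP1 and MGME1, against 5.84% of windows. SSBP1 had 3 windows and the other searched genes 1 each, and a gene counted where any of its windows matched. The YY1 match of SSBP1 was not in all of its windows. A match describes letters in a window and is no evidence of binding.

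The members differed widely in abundance. Per kilobase of the canonical transcript (GENCODE v44), in siNT cells without a transgene, SSBP1 stood at 232 ± 5.92 CPM per kb and TFAM at 41.6 ± 0.915. POLG (26.7 ± 0.65), TWNK (25.5 ± 0.324), MGME1 (25.2 ± 0.717) and POLRMT (23.7 ± 0.846) came next, where the libraries of TWNK and MGME1 overlapped, as did those of MGME1 and POLRMT. TEFM followed at 15.6 ± 1.07 CPM per kb, and TFB2M (9.14 ± 0.169), POLG2 (5.54 ± 0.432) and TFB1M (4.07 ± 0.18) were the least abundant (SD, n = 3 each). No other neighbours in this order overlapped. The DNA-coating proteins SSBP1 and TFAM thus had the most RNA per length, and both TFB factors and POLG2 the least.

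**Figure D1:**
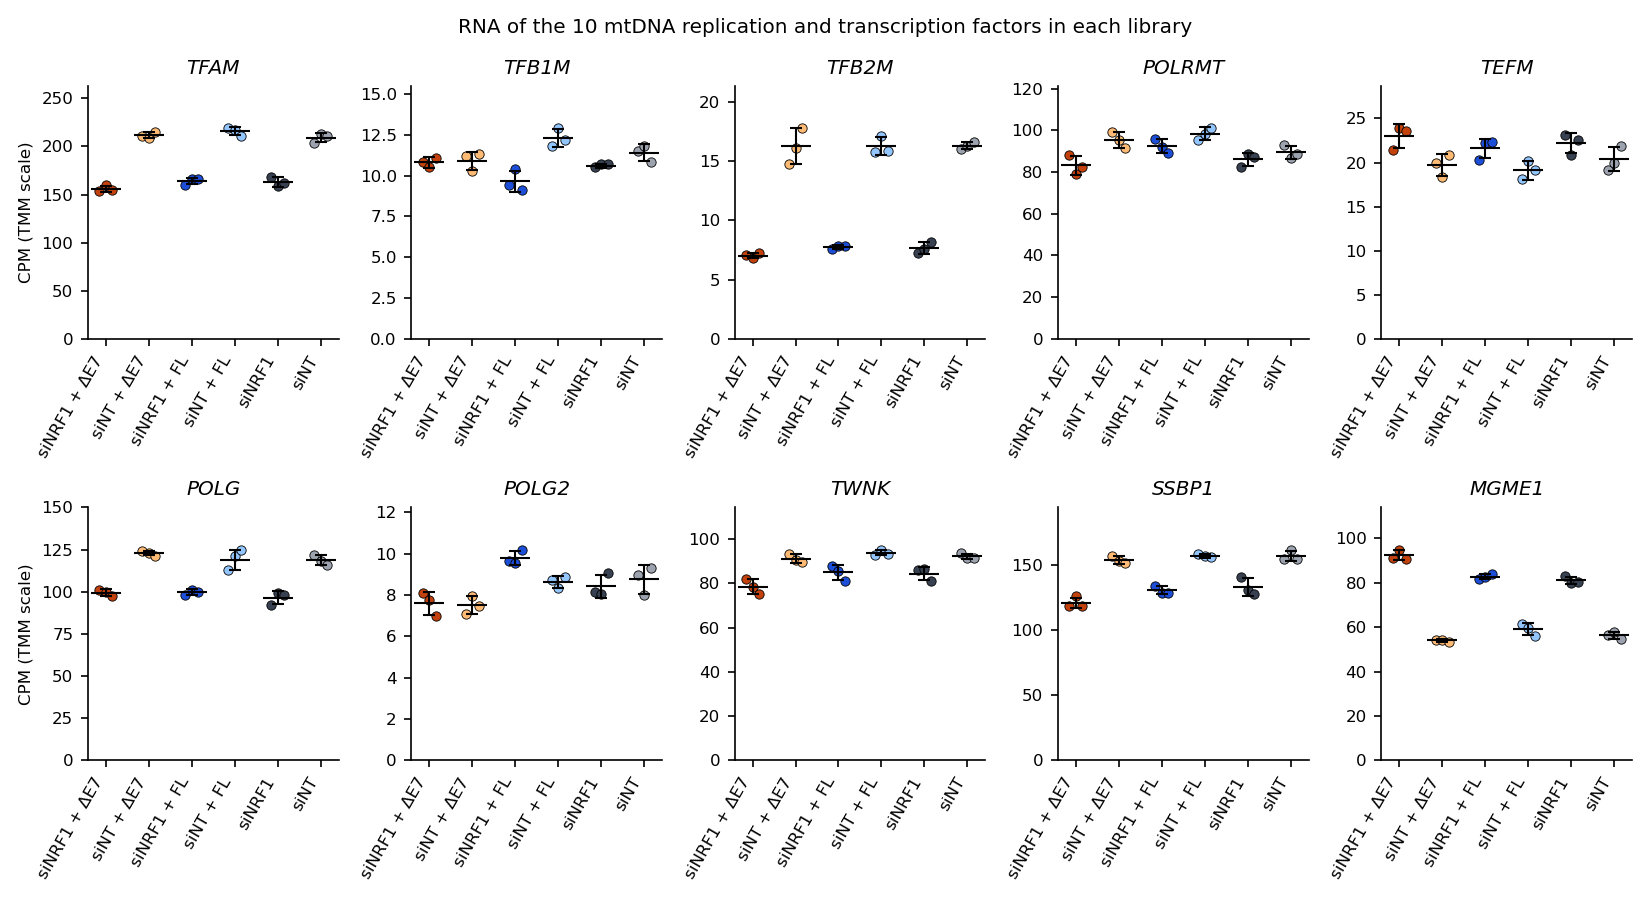
Points are the CPM of single libraries and bars the mean and SD of 3 libraries, for each of the 10 genes in the 6 conditions, on axes that start at 0. TFB2M sits between 6.79 and 8.21 CPM in all 9 siNRF1 libraries and between 14.8 and 17.8 CPM in all 9 siNT libraries, and MGME1 runs the opposite way.

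Among the 10 members, TFB2M, the promoter-melting factor, fell most after siNRF1 in each of the 3 backgrounds, the transgenic lines with their high total NRF1 RNA included. TFB2M (ENSG00000162851.8, chr1:246540561-246566261, hg38) had 7.24, 7.56 and 8.21 CPM in siNRF1 libraries without a transgene, against 16.0, 16.3 and 16.6 CPM in siNT libraries. In the NRF1-FL line it had 7.56, 7.86 and 7.84 CPM under siNRF1, against 15.8, 17.1 and 15.9 CPM under siNT. In the NRF1-ΔE7 line it had 7.06, 6.79 and 7.25 CPM under siNRF1, against 14.8, 16.1 and 17.8 CPM under siNT. The groups did not overlap in any background. Among all tested genes, 67.6% were separate in either direction without a transgene, 67% with NRF1-FL and 70.9% with NRF1-ΔE7. These shares stand beside each member below. The siNRF1 libraries of TFB2M in all 3 backgrounds fell within a narrow band. The log2 fold-changes were -1.09 without a transgene (SE 0.0682, adjusted p = 1.82e-12), -1.07 in the NRF1-FL line (SE 0.0678, adjusted p = 2.51e-12) and -1.21 in the NRF1-ΔE7 line (SE 0.0675, adjusted p = 1.76e-13). Relative to siNT cells without a transgene, TFB2M RNA stood at 47.0% after siNRF1 alone, 47.5% with NRF1-FL and 43.1% with NRF1-ΔE7.

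TFAM, the packaging and initiation factor, fell less and equally regularly. TFAM (ENSG00000108064.11, chr10:58385345-58399220) had 168, 159 and 162 CPM in siNRF1 libraries without a transgene, against 204, 213 and 211 CPM in siNT libraries. It had 160, 166 and 166 CPM under siNRF1 in the NRF1-FL line, against 219, 217 and 211 CPM under siNT in that line. With NRF1-ΔE7 it had 154, 160 and 155 CPM under siNRF1, against 211, 209 and 215 CPM under siNT. Each siNRF1 library was below each siNT library. The log2 fold-changes were -0.36 without a transgene, -0.40 with NRF1-FL and -0.44 with NRF1-ΔE7, with an SE of 0.0284 or less and adjusted p of 1.07e-10, 1.93e-11 and 2.3e-12.

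The other proteins of the transcription machinery moved little. POLRMT (ENSG00000099821.14, chr19:617221-633537), the polymerase itself, averaged 86.0 ± 3.27 CPM in siNRF1 cells and 89.4 ± 3.19 CPM in siNT cells without a transgene, with overlapping libraries and no pass (log2 fold-change -0.06, adjusted p = 0.231). In the NRF1-ΔE7 line it was lower, with 87.9, 79.0 and 82.2 CPM under siNRF1, against 99.0, 95.5 and 91.3 CPM under siNT (log2 fold-change -0.20, adjusted p = 0.000246). In the NRF1-FL line it did not pass (-0.09, adjusted p = 0.0633) but passed as lower in 6 of 13 alternative fits. The siRNA response of POLRMT in the NRF1-ΔE7 line was not shown to differ from that without a transgene (difference -0.14, 95% interval -0.27 to -0.01, adjusted p = 0.265). TEFM (ENSG00000172171.11, chr17:30897336-30906238), the elongation factor, averaged 22.2 ± 1.14 CPM in siNRF1 cells and 20.4 ± 1.40 CPM in siNT cells without a transgene (log2 fold-change 0.13, adjusted p = 0.0833). It was higher under siNRF1 in the NRF1-FL line (0.17, adjusted p = 0.0218) and in the NRF1-ΔE7 line (0.22, adjusted p = 0.00342). An antisense long noncoding RNA covers 497 bases of the TEFM transcript, and its own RNA stayed between 0.932 and 1.30 CPM on average without passing in any of the 3 backgrounds.

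TFB1M, the ribosomal RNA methyltransferase, behaved differently between the lines. TFB1M (ENSG00000029639.11, chr6:155256134-155314493) had 10.5, 10.7 and 10.7 CPM in siNRF1 libraries without a transgene, against 11.5, 11.8 and 10.8 CPM in siNT libraries, which did not pass (log2 fold-change -0.09, adjusted p = 0.20). In the NRF1-FL line it had 9.44, 10.4 and 9.11 CPM under siNRF1, against 11.8, 12.9 and 12.2 CPM under siNT. In the NRF1-ΔE7 line it had 10.8, 10.5 and 11.1 CPM under siNRF1, against 11.2, 10.3 and 11.3 CPM under siNT. The libraries overlapped in the NRF1-ΔE7 line, were barely apart without a transgene and were clearly apart in the NRF1-FL line, where the log2 fold-change was -0.35 (SE 0.0629, adjusted p = 3.95e-05). The response in the NRF1-ΔE7 line differed from that in the NRF1-FL line by 0.33 (95% interval 0.14 to 0.52, adjusted p = 0.0222), and this call was lost in 7 of 19 alternative fits, with adjusted p from 0.0104 to 0.074. The response in the NRF1-FL line did not pass as different from that without a transgene (-0.26, adjusted p = 0.116). The exons of TFB1M share 1264 bases with TIAM2 on the opposite strand and 591 bases with a long noncoding RNA on its own strand (ENSG00000235381). TIAM2 was lower under siNRF1 in all 3 backgrounds, by -0.26 without a transgene, -0.26 with NRF1-FL and -0.33 with NRF1-ΔE7 (adjusted p = 0.0121, 0.00967 and 0.00167). The noncoding RNA was lower under siNRF1 in the NRF1-FL line too (log2 fold-change -0.37, adjusted p = 0.0434) and did not pass in the other backgrounds. Reads of such shared exons may be divided between the genes, and the estimated counts of TFB1M are not whole numbers. Those of POLRMT, for which no exon overlap was found, are not whole either, while those of TEFM and POLG are. Fractional counts therefore do not show which members share reads.

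Of the replication proteins, SSBP1, POLG and TWNK fell after siNRF1 and MGME1 rose. SSBP1 (ENSG00000106028.11, chr7:141738334-141787922), which coats single-stranded mtDNA, had 141, 131 and 128 CPM in siNRF1 libraries without a transgene, against 155, 162 and 155 CPM in siNT libraries. It had 134, 129 and 129 CPM under siNRF1 in the NRF1-FL line, against 159, 157 and 156 CPM under siNT. With NRF1-ΔE7 it had 119, 126 and 119 CPM under siNRF1, against 157, 153 and 152 CPM under siNT. The siNRF1 libraries were below the siNT libraries in each background, with log2 fold-changes of -0.24, -0.27 and -0.35 without a transgene, with NRF1-FL and with NRF1-ΔE7 (adjusted p = 1.56e-06, 3.06e-07 and 3.46e-09).

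POLG (ENSG00000140521.13, chr15:89305198-89334861), the catalytic subunit of the replicative polymerase, was lower by a similar amount. It had 92.0, 99.3 and 98.0 CPM in siNRF1 libraries without a transgene, against 122, 118 and 116 CPM in siNT libraries. The NRF1-FL line gave 98.0, 101 and 100 CPM under siNRF1, against 113, 121 and 125 CPM under siNT, and the NRF1-ΔE7 line 101, 100 and 97.3 CPM under siNRF1, against 124, 123 and 121 CPM under siNT. No siNRF1 library of a background reached its siNT libraries. These are log2 fold-changes of -0.30, -0.26 and -0.30 without a transgene, with NRF1-FL and with NRF1-ΔE7 (SE 0.0352 or less, adjusted p = 9.21e-08, 8.07e-07 and 5.64e-08). FANCI, which shares 431 bases of the POLG transcript on the opposite strand, moved the other way (log2 fold-change 0.19 without a transgene, adjusted p = 9.02e-08). POLGARF, an overlapping reading frame on the strand of POLG, is annotated over 783 of its bases.

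TWNK (ENSG00000107815.10, chr10:100987367-100994403), the helicase, showed a smaller decrease. Its RNA averaged 84.5 ± 3.15 CPM in siNRF1 cells and 92.3 ± 1.17 CPM in siNT cells without a transgene (log2 fold-change -0.13, adjusted p = 0.00337). With NRF1-FL it averaged 85.1 ± 3.45 CPM under siNRF1 and 93.9 ± 1.16 CPM under siNT (-0.14, adjusted p = 0.00134), and with NRF1-ΔE7 78.5 ± 3.36 CPM under siNRF1 and 91.2 ± 1.95 CPM under siNT (-0.22, adjusted p = 1.1e-05). The first and second of these calls were lost with upper-quartile scaling (log2 fold-change -0.04, adjusted p = 0.286, and -0.06, adjusted p = 0.134). POLG2 (ENSG00000256525.7, chr17:64477785-64497054), the processivity subunit, averaged 8.42 ± 0.548 CPM in siNRF1 cells and 8.76 ± 0.683 CPM in siNT cells without a transgene, and did not pass (adjusted p = 0.513). With NRF1-FL it averaged 9.78 ± 0.345 CPM under siNRF1 and 8.64 ± 0.279 CPM under siNT (log2 fold-change 0.18, adjusted p = 0.0431). That call was lost in 10 of 13 alternative fits, with adjusted p from 0.0042 to 0.157.

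MGME1, the exonuclease, was the one member that rose in each background. MGME1 (ENSG00000125871.14, chr20:17969018-17991122) had 82.9, 80.1 and 80.3 CPM in siNRF1 libraries without a transgene, against 56.5, 57.8 and 54.6 CPM in siNT libraries. In the NRF1-FL line it had 81.6, 82.4 and 83.8 CPM under siNRF1, against 61.6, 59.8 and 56.0 CPM under siNT. The NRF1-ΔE7 line had 91.1, 94.9 and 90.9 CPM under siNRF1, against 54.4, 54.2 and 53.3 CPM under siNT. The siNRF1 libraries were above the siNT libraries throughout, and those with NRF1-ΔE7 were the highest of the series. The log2 fold-changes were 0.53 without a transgene (adjusted p = 3.85e-12), 0.48 with NRF1-FL (adjusted p = 1.57e-11) and 0.77 with NRF1-ΔE7 (adjusted p = 2.06e-15), with an SE of 0.0344 or less. The response with NRF1-ΔE7 exceeded that with NRF1-FL by 0.29 (95% interval 0.19 to 0.39, adjusted p = 0.000225) and that without a transgene by 0.25 (0.14 to 0.35, adjusted p = 0.00767). Both differences passed in all 19 alternative fits.

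**Figure D2:**
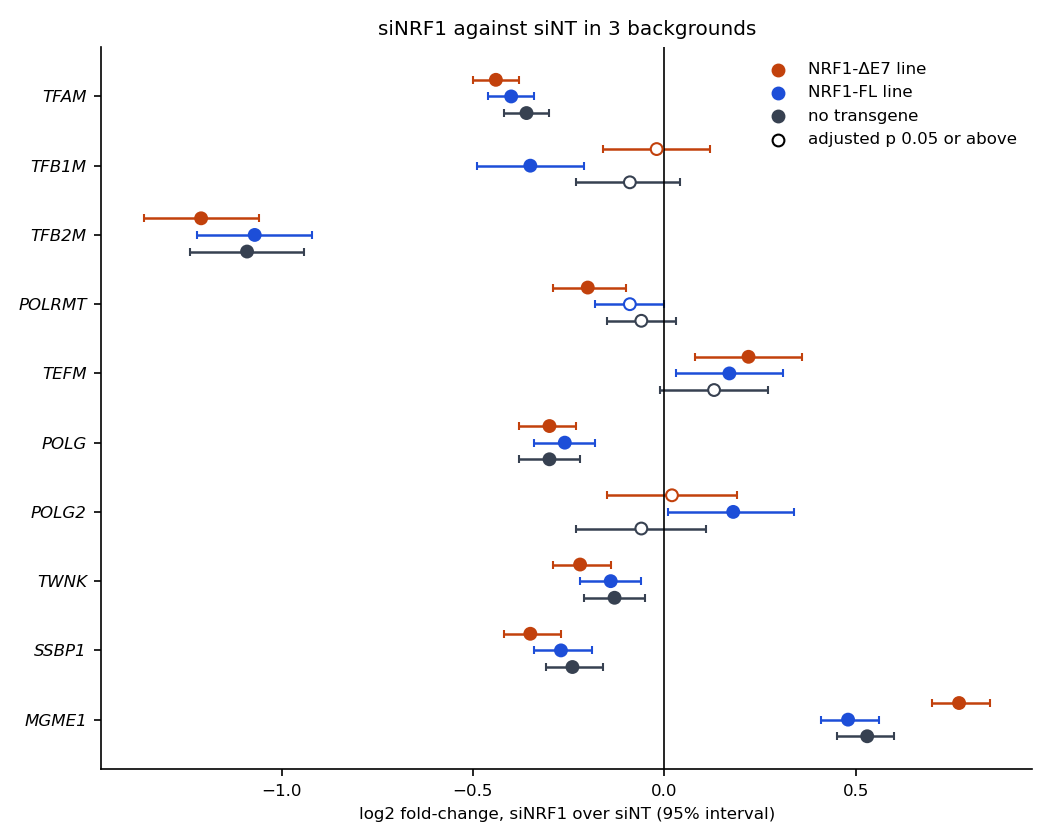
Log2 fold-changes of siNRF1 over siNT with their 95% intervals for the 10 genes, in the NRF1-ΔE7 line, the NRF1-FL line and without a transgene; open circles did not pass. TFB2M lies at -1.21 to -1.07 and MGME1 at 0.48 to 0.77, and the 3 backgrounds lie close together for TFAM, POLG and TFB2M.

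Counted over the list, siNRF1 against siNT without a transgene gave 5 of 10 members lower, beside 32.4% of all tested genes, and 1 of 10 higher, beside 32.1%. With upper-quartile scaling this split was 4 lower and 2 higher. In the NRF1-FL line 6 of 10 were lower (31.3% of all genes) and 3 of 10 higher (32.2%), or 7 lower and 2 higher with RLE scaling, and in the NRF1-ΔE7 line 6 of 10 were lower (33.6%) and 2 of 10 higher (34.5%). Whether these shares differ from those of all genes was not tested. Only TFB2M was lower by a log2 fold-change beyond 0.5 in the 3 backgrounds (15.2% of all genes without a transgene, 14% with NRF1-FL and 16.8% with NRF1-ΔE7), and only MGME1 was higher beyond it, without a transgene and with NRF1-ΔE7 (13.7% and 16% of all genes). With NRF1-FL 0 of 10 were higher beyond it, beside 13.1%. The median log2 fold-change of the 10 members was -0.11 without a transgene, -0.20 with NRF1-FL and -0.21 with NRF1-ΔE7, beside 0.01 to 0.02 over all genes.

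The next comparison asked whether either transgene changed the members' levels in siNRF1 cells. The 5 members lower after siNRF1 alone (TFB2M, TFAM, SSBP1, POLG and TWNK) were not higher with NRF1-FL, although NRF1 RNA was 6.21 times that of siNRF1 cells without a transgene. Between siNRF1 with NRF1-FL and siNRF1 alone, the log2 fold-change was 0.02 for TFB2M (95% interval -0.14 to 0.18), 0.01 for TFAM (-0.06 to 0.07), 0.05 for POLG (-0.03 to 0.13), 0.01 for TWNK (-0.07 to 0.09) and -0.03 for SSBP1 (-0.10 to 0.05). MGME1 stood at 0.03 (-0.05 to 0.10). These intervals, which do not correct for the line, leave room for a return of at most 0.18 for TFB2M and 0.07 for TFAM. TFB2M had fallen by 1.09 and TFAM by 0.36. Among the 10 members, POLG2 alone was higher (0.21, adjusted p = 0.0419, beside 12.7% of all genes higher), a call lost in 10 of 13 alternative fits, and 0 of 10 were lower (9.72% of all genes). At an unadjusted p under 0.05 the lower count was 1 (TFB1M), and DESeq2 also gave 0. Tested directly, the siRNA response in the NRF1-FL line differed from that without a transgene for 0 of 10 members in either direction, beside 1.15% of all genes in the lower and 4.18% in the higher direction. In edgeR at an unadjusted p under 0.05, 1 passed in each direction, and DESeq2 gave 0. These 2 differences were -0.26 for TFB1M (95% interval -0.45 to -0.06) and 0.24 for POLG2 (0.00 to 0.47). The difference in response was 0.02 for TFB2M (-0.19 to 0.23) and -0.04 for TFAM (-0.12 to 0.05). These comparisons share the siNRF1 libraries without a transgene with the first one.

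With NRF1-ΔE7, siNRF1 cells differed from siNRF1 cells without a transgene in 3 members. SSBP1 (log2 fold-change -0.14, adjusted p = 0.00469) and TWNK (-0.11, adjusted p = 0.0349) were lower, 2 of 10 beside 11.8% of all genes. The TWNK call was lost in 6 of 13 alternative fits. MGME1 was higher (0.19, adjusted p = 0.000224), 1 of 10 beside 9.59% of all genes. The siRNA response itself differed between the NRF1-ΔE7 line and cells without a transgene in 1 of 10 members, MGME1 as given above, in the higher direction (0.44% of all genes), and in 0 of 10 in the lower direction (1.59% of all genes, 2 of 10 at an unadjusted p under 0.05, and 0 by DESeq2). In siNT cells, 0 of 10 members passed in either direction with NRF1-ΔE7 against no transgene (7.69% of all genes lower, 8.62% higher) or with NRF1-FL against no transgene (2.81% lower, 5.33% higher). POLRMT with NRF1-FL (0.13, adjusted p = 0.0505) and POLG2 with NRF1-ΔE7 (-0.23, adjusted p = 0.051) came closest, the first passing in 6 and the second in 3 of 13 alternative fits, and DESeq2 called POLRMT. At an unadjusted p under 0.05, 1 member was higher with NRF1-FL, and with NRF1-ΔE7 1 was higher and 1 lower. NRF1 RNA in these siNT cells was 1.94 times that of cells without a transgene with NRF1-ΔE7 and 1.81 times with NRF1-FL.

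**Figure D3:**
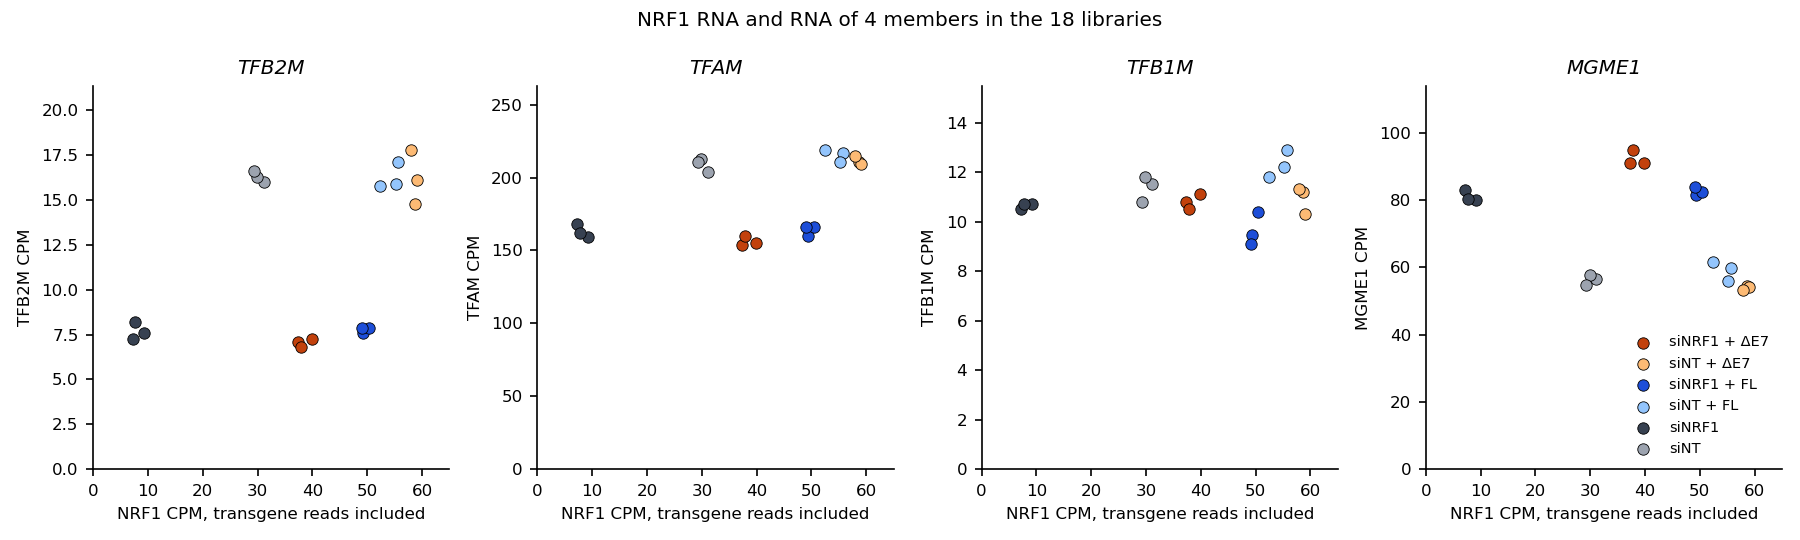
Each point is 1 of the 18 libraries, with NRF1 CPM (transgene reads included) on the horizontal axis and the CPM of TFB2M, TFAM, TFB1M or MGME1 on the vertical axis, coloured by condition. The siNRF1 libraries with NRF1-FL, at 49.1 to 50.4 CPM of NRF1, lie at the same TFB2M, TFAM and MGME1 levels as the siNRF1 libraries without a transgene, at 7.19 to 9.25 CPM.

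The comparison of the isoforms under siNRF1, NRF1-ΔE7 against NRF1-FL, gave small differences in both directions. POLG2 had 8.08, 7.75 and 7.0 CPM with NRF1-ΔE7, against 9.63, 9.54 and 10.2 CPM with NRF1-FL, with no overlap (21.7% of all genes lay lower without overlap). Its log2 fold-change of -0.36 (SE 0.0744, adjusted p = 0.000573) was the largest of the 10 and passed in all 13 alternative fits. MGME1 was higher with NRF1-ΔE7 by 0.16 (SE 0.0326, adjusted p = 0.000564), also in all 13. POLRMT (-0.15, adjusted p = 0.0073), TWNK (-0.12, adjusted p = 0.0147) and SSBP1 (-0.11, adjusted p = 0.0146) were lower. POLRMT passed in 11, TWNK in 9 and SSBP1 in 10 of 13 alternative fits, and POLG2 alone remained among the lower ones when replicate 1 of siNRF1 with NRF1-FL was left out. Thus 4 of 10 members were lower, beside 17.8% of all genes, and 1 of 10 higher, beside 13.9%. With RLE or upper-quartile scaling the split was 4 lower and 2 higher. Beyond a log2 fold-change of 0.5, 0 of 10 were lower (4.1% of all genes) and 0 of 10 higher (2.11%). TFB2M averaged 7.03 ± 0.229 CPM with NRF1-ΔE7 and 7.76 ± 0.169 CPM with NRF1-FL under siNRF1. It did not pass (-0.14, 95% interval -0.30 to 0.02, adjusted p = 0.16), although its libraries with NRF1-ΔE7 lay below without overlap (21.7% of all genes). TFB1M stood at 0.16 and did not pass (adjusted p = 0.0555). Its libraries with NRF1-ΔE7 lay above those with NRF1-FL without overlap, as did those of 19.9% of all genes. TFAM (-0.07, -0.13 to -0.01) and POLG (-0.01, -0.08 to 0.07) did not pass either.

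Under siNT, MGME1 was the member that passed between the isoforms, with 54.4, 54.2 and 53.3 CPM with NRF1-ΔE7, against 61.6, 59.8 and 56.0 CPM with NRF1-FL (log2 fold-change -0.13, adjusted p = 0.0128). This is 1 of 10 lower, beside 8.42% of all genes (3 of 10 at an unadjusted p under 0.05), and 0 of 10 higher, beside 7.13% (also 0 at an unadjusted p under 0.05 and by DESeq2). The call was lost in 3 of the 6 fits that left out a library, replicate 1 or 2 with NRF1-FL or replicate 3 with NRF1-ΔE7. The sign is opposite to that under siNRF1. TFB1M (-0.17, adjusted p = 0.0706) and POLG2 (-0.20, adjusted p = 0.0807) did not pass. Their libraries with NRF1-ΔE7 lay below those with NRF1-FL without overlap, as did those of 17.3% of all genes. The difference between the 2 isoform comparisons passed in 2 of 10 members in the higher direction (1.64% of all genes), TFB1M and MGME1 with the values given above, and in 0 of 10 in the lower direction (5.55% of all genes, also 0 at an unadjusted p under 0.05 and by DESeq2).

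**Figure D4:**
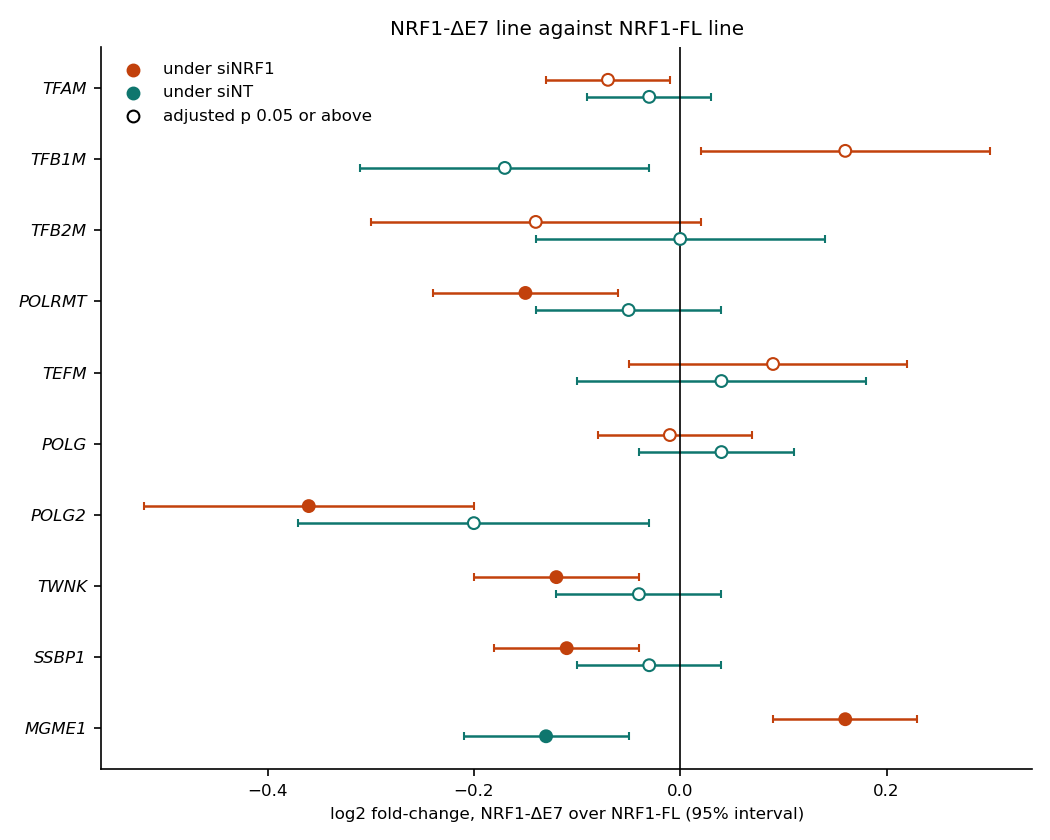
Log2 fold-changes of NRF1-ΔE7 over NRF1-FL with their 95% intervals for the 10 genes, under siNRF1 and under siNT; open circles did not pass. POLG2 is lowest at -0.36 under siNRF1, and MGME1 lies at 0.16 under siNRF1 and at -0.13 under siNT.

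The order of the conditions was alike for several members. TFAM, TFB1M, TFB2M, POLG, TWNK and SSBP1 had their 3 highest means in the siNT conditions, and MGME1 and TEFM in the siNRF1 conditions. Over the 18 libraries, log2 CPM of TFAM correlated with that of TFB2M at a Pearson r of 0.98, with SSBP1 at 0.96 and with MGME1 at -0.96, while POLG2 correlated with no other member beyond an absolute r of 0.39. The libraries share the 2 siRNA treatments, which set most of this spread. Among the genes most like each member over these libraries, of 14452 with at least 1 CPM, were STX16 (r = 0.996) and PSMC1 (0.995) for TFB2M, GNB4 (0.995) for TFAM, and DNAJC9 (0.993) and E2F7 (0.989) for MGME1. The closest genes were FAM102B for SSBP1 (0.984), CPSF1 for POLG (0.981) and DNAJC14 for TWNK (0.975). For POLRMT (SIX5, 0.919), TEFM (YAE1, 0.897), POLG2 (VAV3, 0.866) and TFB1M (SLC25A3, 0.823) the best match was weaker.

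Because a single siRNA was used, the members were also searched for its seed, the bases 2 to 8 of the guide strand, shown in capitals.
NRF1 siRNA, guide strand: aGAUACAGaggacaauagc
The matching 7 bases, CTGTATC, occur once in the canonical 3′ UTR of TFAM, at position 3607 of 4146, and once in the coding sequence of TFB2M. They occur in no 3′ UTR of the other 9 members, and in 11% of the 14245 canonical 3′ UTRs of tested genes. How often they occur in the coding sequences of all genes was not counted. The 2 sites (hg38, GENCODE v44) are given with the matching bases in capitals.
TFAM, chr10:58398670-58398699, plus strand: tctgatgttttCTGTATCtaaaatttatca
TFB2M, chr1:246544636-246544665, minus strand: tacaacaaaagCTGTATCttattcaaatga
Whether the siRNA acts on either RNA was not tested.

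The wider machinery of mtDNA maintenance was followed with lists of other genes. In this first comparison, siNRF1 against siNT without a transgene, 32.4% of all tested genes were lower and 32.1% higher, and the counts of each list that follow stand beside these shares. Over 66 genes in 6 lists, 35 were lower and 12 higher, with a median log2 fold-change of -0.16, beside 0.01 over all genes. With upper-quartile scaling 32 were lower and 20 higher, with a median of -0.08. Among 10 other replication enzymes, 5 were lower and 2 higher (4 and 3 with upper-quartile scaling). DNA2, a nuclease and helicase that processes flaps, averaged 33.1 ± 1.65 CPM in siNRF1 cells and 64.9 ± 1.08 CPM in siNT cells (log2 fold-change -0.97, adjusted p = 2.81e-15). LIG3, the DNA ligase of mitochondria (-0.40, adjusted p = 1.34e-11), and TOP1MT, a mitochondrial topoisomerase (-0.39, adjusted p = 3.41e-06), were lower too. Between the isoforms under siNRF1, EXOG, a mitochondrial nuclease, was at -0.24 and MPV17, an inner membrane protein needed for mtDNA upkeep, at 0.19. In mtDNA repair, 2 of 5 genes were lower and 1 higher. UNG, which removes uracil from nuclear and mitochondrial DNA, averaged 100 ± 1.16 CPM in siNRF1 cells and 214 ± 1.57 CPM in siNT cells (-1.10, adjusted p = 1.08e-19). The glycosylase MUTYH was lower (-0.59) and the endonuclease APEX1 higher (0.23), and the glycosylase OGG1 was higher in NRF1-ΔE7 cells than in NRF1-FL cells when NRF1 was depleted (0.18).

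Over the same 66 genes, siNRF1 with NRF1-FL against siNRF1 alone gave 14 higher and 7 lower with a median of 0, beside 12.7% higher and 9.72% lower of all genes. DNA2 and UNG, lower after siNRF1 alone, were among the higher ones. DNA2 averaged 64.0 ± 0.404 CPM in siNRF1 cells with NRF1-FL, against 33.1 ± 1.65 CPM in siNRF1 cells without a transgene (log2 fold-change 0.95, adjusted p = 7.15e-14). With NRF1-ΔE7 it averaged 34.1 ± 1.92 CPM, which did not pass against siNRF1 alone (0.04, adjusted p = 0.602). UNG averaged 205 ± 5.68 CPM with NRF1-FL, against 100 ± 1.16 CPM in siNRF1 cells without a transgene (1.04, adjusted p = 8.78e-18), and 111 ± 2.34 CPM with NRF1-ΔE7 (0.15, adjusted p = 0.000508). Between the isoforms, NRF1-ΔE7 over NRF1-FL in depleted cells, the log2 fold-change was -0.91 for DNA2 (adjusted p = 8.29e-14) and -0.89 for UNG (adjusted p = 9.92e-17). Among the 10 core factors the corresponding values ran from -0.36 (POLG2) to 0.16 (TFB1M and MGME1). PRORP, which processes mitochondrial RNA, did not pass with NRF1-FL against siNRF1 alone (29.1 ± 0.639 CPM, against 27.7 ± 2.83 CPM), nor did MRPL12 (128 ± 8.88 CPM, against 129 ± 1.58 CPM).

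Genes that supply nucleotides to mitochondria moved in both directions, 6 of 12 lower and 6 of 12 higher, beside 32.4% and 32.1% of all genes. RRM2B, a ribonucleotide reductase subunit, averaged 24.6 ± 1.92 CPM in siNRF1 cells and 45.4 ± 0.758 CPM in siNT cells (-0.88, adjusted p = 5.62e-12), and siNRF1 cells with NRF1-FL stood at -0.03 against siNRF1 alone without passing (adjusted p = 0.83). SUCLA2, a subunit of succinyl-CoA synthetase tied to mitochondrial nucleotide supply, was lower after siNRF1 (-0.78, adjusted p = 1.35e-14) and higher with NRF1-FL than in siNRF1 cells alone (0.55, adjusted p = 1.2e-10). CMPK2, a mitochondrial nucleotide kinase (0.96, adjusted p = 0.00199), and TYMP, thymidine phosphorylase (-0.84, adjusted p = 0.0116), also passed, at levels near or below 1 CPM without a transgene. SLC25A33, a mitochondrial pyrimidine nucleotide carrier, was lower in NRF1-ΔE7 cells than in NRF1-FL cells under both siRNAs, with log2 fold-changes of -0.36 under siNRF1 and -0.39 under siNT (adjusted p = 1.47e-07), where it averaged 35.6 ± 1.11 CPM with NRF1-ΔE7 and 46.8 ± 0.834 CPM with NRF1-FL.

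Of 23 genes of mitochondrial RNA processing and turnover, 10 were lower and 1 higher after siNRF1 without a transgene (32.4% and 32.1% of all genes), a split that became 8 lower and 6 higher with upper-quartile scaling. PRORP, the nuclease of mitochondrial RNase P (-0.98, adjusted p = 7.1e-14), GRSF1, an RNA granule protein (-0.80, adjusted p = 3.93e-17), and MRM1, a ribosomal RNA methyltransferase (-0.64, adjusted p = 3.76e-09), fell most. Between the isoforms under siNRF1, FASTK, an RNA-binding protein of mitochondria, was at 0.41 and PTCD1, a pentatricopeptide protein, at -0.35, and under siNT FASTK was at 0.18 (adjusted p = 0.00865) and PTCD1 at -0.21 (adjusted p = 0.00608). In the list of MTERF proteins and MRPL12, 2 of 5 were lower and 2 higher (2 and 3 with upper-quartile scaling), with MRPL12, a ribosomal protein that also binds POLRMT, at -0.51 (adjusted p = 3.99e-11), MTERF3 at -0.35 and the termination factor MTERF1 at 0.23. MTERF2 (0.28) and MTERF4 (0.14) were higher in NRF1-ΔE7 cells than in NRF1-FL cells in siNRF1 cells. Of 11 genes of nucleoid proteases, membrane anchors and segregation, 10 were lower and 0 higher, with a median of -0.42. They included MFN2, a mitochondrial fusion GTPase (-0.83, adjusted p = 2.96e-16), ATAD3A, an inner membrane ATPase linked to nucleoids (-0.75, adjusted p = 9.35e-15), and PHB2, a prohibitin (-0.73, adjusted p = 4.26e-16). After siNRF1, 7 of these 11 were lower in NRF1-ΔE7 cells than in NRF1-FL cells (17.8% of all genes), among them OPA1, another fusion GTPase (-0.34, adjusted p = 4.4e-08), and LONP1, the protease that degrades free TFAM (-0.28, adjusted p = 3.32e-06). Under siNT, 6 of the 11 were lower between the same lines (8.42% of all genes), OPA1 (-0.15) and LONP1 (-0.21) included, and 7 of 11 were lower in siNT cells with NRF1-ΔE7 than in siNT cells without a transgene (7.69% of all genes). The isoform by siRNA difference passed in 1 of the 11 (lower, 5.55% of all genes).

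Among nuclear regulators of mitochondrial genes, 6 of 10 were lower and 3 higher after siNRF1 without a transgene (32.4% and 32.1% of all genes), NRF1 itself among the lower ones. MYC averaged 27.1 ± 1.02 CPM in siNRF1 cells and 79.3 ± 4.89 CPM in siNT cells (-1.55, adjusted p = 7.66e-17). GABPB1, a subunit of the GABP factor whose ETS core was searched above, averaged 22.3 ± 0.257 CPM in siNRF1 cells and 36.8 ± 2.48 CPM in siNT cells (-0.72, adjusted p = 2.01e-12). The coactivators PPARGC1A (-0.19, adjusted p = 0.0321) and PPARGC1B (-0.21) were lower in NRF1-ΔE7 cells than in NRF1-FL cells after siNRF1.

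The mRNAs encoded by mtDNA itself ran against the fall of TFB2M and TFAM. After siNRF1, 12 of 13 were higher and 0 lower in each of the 3 backgrounds, with median log2 fold-changes of 0.47 without a transgene, 0.67 with NRF1-FL and 0.54 with NRF1-ΔE7. Of all genes, 32.1%, 32.2% and 34.5% were higher in these backgrounds, in the same order, and 32.4%, 31.3% and 33.6% lower. MT-CYB, cytochrome b, ranged from 764 to 988 CPM in siNRF1 libraries without a transgene, against 553 to 562 CPM in siNT libraries (0.66, adjusted p = 9.32e-08). MT-ND3 (0.69, adjusted p = 2.34e-10) and MT-ND4L (0.59, adjusted p = 2.36e-06), subunits of complex I, were higher as well. MT-ND6, the only one of the 13 encoded on the other strand, had a log2 fold-change of -0.20 that did not pass (adjusted p = 0.307). Libraries were made from polyadenylated RNA by a stranded kit. After siNRF1, 6 of 13 were lower in NRF1-ΔE7 cells than in NRF1-FL cells and 0 higher, beside 17.8% and 13.9% of all genes, with MT-CO1 at -0.36 (adjusted p = 0.000144) and MT-ATP8 at -0.32 (adjusted p = 0.0104). Under siNT, 1 of 13 was lower between the isoforms (8.42% of all genes), MT-CO1 at -0.27 (adjusted p = 0.00533), and 8 of 13 were lower with NRF1-ΔE7 than without a transgene (7.69% of all genes). The isoform by siRNA difference had a median of -0.11 over the 13 mRNAs on the log2 scale, against 0 over all genes tested, and was not past the threshold for a member of this list.

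**Figure D5:**
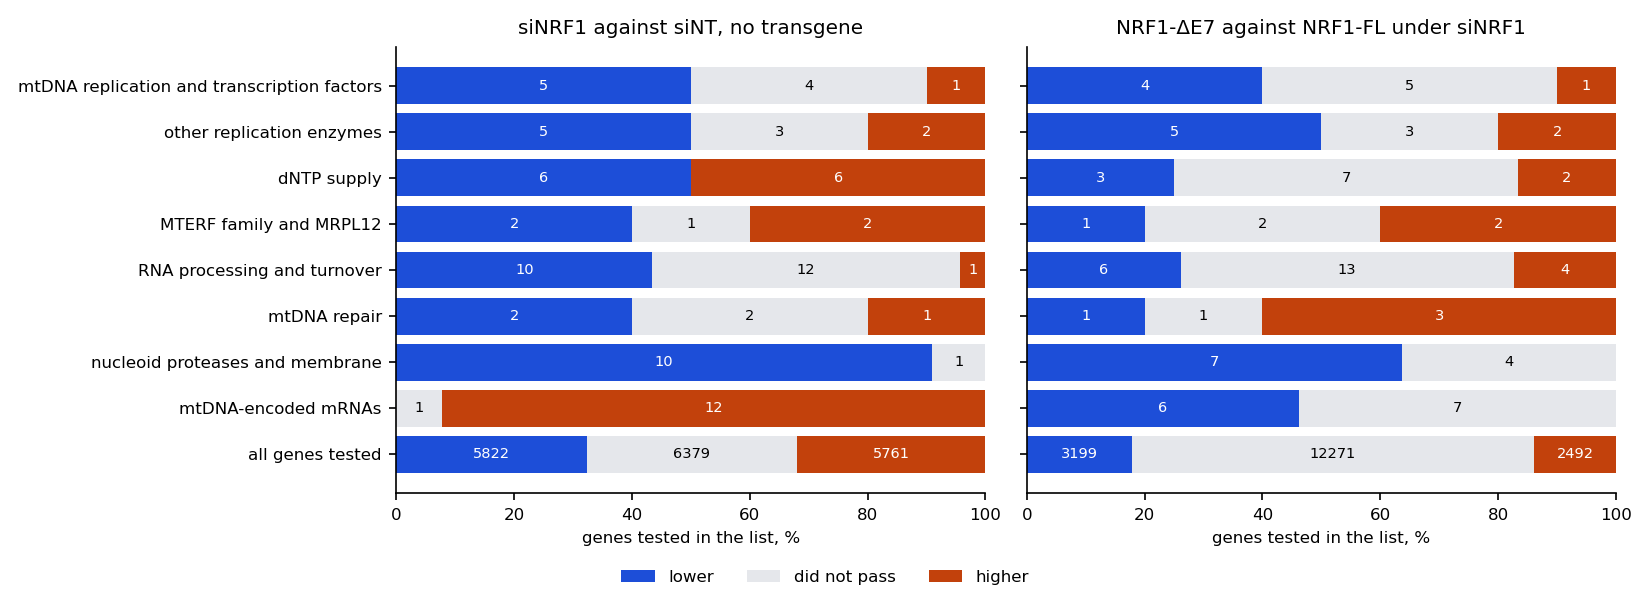
Bars give the share of tested genes of each list that were lower, did not pass or were higher, with the number of genes inside, for siNRF1 against siNT without a transgene and for the 2 isoforms (NRF1-ΔE7 over NRF1-FL) under siNRF1. The list of nucleoid proteases and membrane proteins has 10 of 11 genes lower after siNRF1 (32.4% of all genes), and the mtDNA-encoded mRNAs have 12 of 13 higher (32.1% of all genes).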

How the data were processed

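The samples were 18 libraries, 3 per condition. Per the submitters' notes and the methods, read trimming by cutadapt 1.18 and mapping by STAR 2.7.0f to hg38 came first, and DESeq2 1.46.0 is listed too. The values the authors deposited are unnormalized estimated counts by gene (91.9% of them whole). The sources used here give neither the counting tool nor how it treated strand. Of 36 columns, 18 belong to no sample described here and were not used.

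Estimated counts were rounded, filtered with filterByExpr (minimum count 10), scaled by TMM and fitted with edgeR 4.0.16 (R 4.3.3) over all 18 libraries (12 residual degrees of freedom, biological coefficient of variation 0.0337). The two-sided quasi-likelihood test was adjusted by Benjamini-Hochberg over 17962 genes, and intervals are 95% intervals of this fit. The steps were tested on simulated data. Replicates differed by more than counting error in every pair (chi-square over its degrees of freedom from 2.01 to 7.27).

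Named genes were the members, NRF1, up to 3 genes per list with the largest passing change after siNRF1 without a transgene, up to 2 more between the isoforms under siNRF1, and the 2 genes most correlated with each member (1 for some, and 1 such gene is not reported here). Genes that overlap members, and MT-ND6, were chosen after their values were seen. Members and lists were chosen with earlier results of these data known.

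The settings varied were the scaling (RLE, upper-quartile), the low-count filter (none, stricter), a replicate block, the tool (DESeq2 1.42.0), the libraries in the fit, a fold threshold and each library left out. Positions come from GENCODE v44, a later annotation than that of the authors, and promoter windows from RefSeq. Python 3.11.15, numpy 2.4.6, pandas 2.3.3 and matplotlib 3.10.9 were used.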

Additional observations from a re-analysis of the deposited data

Results flagged for a closer look

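For 2 members the response to siNRF1 differed between backgrounds by a direct test of the difference. The MGME1 response with NRF1-ΔE7 exceeded that with NRF1-FL by 0.29 on the log2 scale and that without a transgene by 0.25. The TFB1M response with NRF1-ΔE7 differed from that with NRF1-FL by 0.33. This call passed in only 12 of 19 alternative fits, while both MGME1 differences passed in all 19. TFB1M was lower under siNRF1 in the NRF1-FL line and not in the NRF1-ΔE7 line. Its log2 fold-change of NRF1-ΔE7 over NRF1-FL was 0.16 under siNRF1 and -0.17 under siNT, and neither passed. NRF1 RNA under siNRF1 was 38.3 ± 1.35 CPM with NRF1-ΔE7 and 49.6 ± 0.715 CPM with NRF1-FL (SD, n = 3 each), and its part in these differences was not tested.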

How the results depend on the processing

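Of 1740 log2 fold-changes of single members recomputed under alternatives, 1666 kept their side of the threshold, 52 no longer passed and 22 newly passed. Of those that had passed in the main fit, 0 changed sign. Those that had not passed could change sign, such as POLRMT after siNRF1 without a transgene (-0.08 to 0.03). With a log2 fold-change beyond 0.5 required, lower members after siNRF1 numbered 1 in each background, and higher ones 1 without a transgene, 0 with NRF1-FL and 1 with NRF1-ΔE7. All other counts of called members became 0. Upper-quartile scaling, which raised siNRF1 libraries by 0.07 to 0.10 on the log2 scale against siNT libraries, gave 2 members higher after siNRF1 without a transgene, 2 higher between the isoforms under siNRF1 (also 2 with RLE), and 0 higher for siNRF1 with NRF1-FL against siNRF1 alone (also 0 with RLE). It moved 27 of the members' mean CPM values by more than 1 SD. DESeq2 gave 1 higher in the NRF1-FL line, 1 higher in the isoform by siRNA difference, 0 higher for siNRF1 with NRF1-FL against siNRF1 alone and 1 higher for siNT with NRF1-FL against siNT. With no filter, these last 3 counts were 1, 0 and 1, and 1 member was lower for siNRF1 with NRF1-ΔE7 against siNRF1 alone. With only the compared libraries that count was 1 too, the higher count for siNRF1 with NRF1-FL was 0, and that for siNT with NRF1-FL was 1. With at least 10 counts in every library, 1 was higher for siNT with NRF1-FL and 1 lower for siNT with NRF1-ΔE7.

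Leaving out single libraries gave 1 to 2 members higher after siNRF1 without a transgene (2 without siNT replicate 3 or siNRF1 replicate 2, adding TEFM) and 1 to 2 in the NRF1-FL line, where 3 passed with all libraries. Between the isoforms it gave 1 to 4 lower and 1 to 2 higher under siNRF1, and 0 to 1 lower under siNT. The isoform by siRNA difference had 1 to 2 higher, since TFB1M was lost without siNT with NRF1-FL replicate 2, siNRF1 with NRF1-FL replicate 1 or 3, siNT with NRF1-ΔE7 replicate 2 or siNRF1 with NRF1-ΔE7 replicate 3. For siNRF1 with NRF1-FL against siNRF1 alone, 0 to 1 were lower and 0 to 1 higher. For siNRF1 with NRF1-ΔE7 against siNRF1 alone, 1 to 2 were lower. For siNT with NRF1-FL 0 to 1 were higher, and for siNT with NRF1-ΔE7 0 to 1 lower, against siNT.

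The same replicate numbers occur in every condition. Libraries of the same number showed only small correlations of their deviations, from -0.2 to 0.16 over 45 pairs (median 0.01). On average, 10 of 18 libraries were closest to their own number. With values this small the check cannot decide whether the numbers pair the samples, and the main fit used no pairing. With the replicate block, 1 member was higher for siNT with NRF1-FL against siNT (POLRMT), and no other count of members moved by more than 1.5 times. The cause of these shifts was not tested. The precision is limited by 3 libraries per condition.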
